A study of Drosophila melanogaster with 12 samples.

Results

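The change of RNA levels between the 2 embryo collections of SHMT mutants is described here, over 6 of the 12 libraries of the series. The 6 libraries were chosen by their labels alone. They are the 3 libraries labelled late blastoderm (1.5–2.5 hr) and the 3 labelled preblastoderm (0–1 hr). Both groups are whole embryos laid by mothers whose germline was homozygous for SHMT[X238], a nonsense allele of CG3011 on the X chromosome. CG3011 encodes serine hydroxymethyl transferase, which interconverts serine and glycine and feeds the folate one-carbon pool that purine, thymidylate and methionine synthesis draw on. Germline clones were made by Flipase/Frt recombination, so the oocyte and its nurse cells were homozygous mutant while the follicle cells around them stayed heterozygous. The zygotic genotype of the embryos was thus not uniform, and each library is a pool of embryos collected by time, not by nuclear cycle. The 3 replicates of a group are called biological by the study, but no source says that they came from separate parents, so p-values measure the spread between these libraries. The other 6 libraries, from OregonR wild-type embryos of the same 2 labels, serve only to show where the SHMT change differs from that of wild type.

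Development of the fly embryo begins with RNAs that the mother deposited in the egg. During the rapid syncytial nuclear cycles many of these maternal RNAs are destroyed, and the zygotic genome is switched on, which is called the maternal-to-zygotic transition. A first small set of zygotic genes, many short and intronless, is transcribed before the large wave at the blastoderm, when the segmentation genes, the dorsoventral genes and the genes for cellularization are expressed. A collection at 0–1 hr is therefore rich in maternal RNAs and has few zygotic ones, and a collection at 1.5–2.5 hr has more of the zygotic ones and fewer of the maternal ones that are cleared.

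In the SHMT libraries the markers of these 2 classes ran against the labels. The pair-rule gene eve, expressed from the zygotic genome, stood at 0.0814, 0.0635 and 0 CPM in the 3 libraries labelled 1.5–2.5 hr, against 8.78, 7.64 and 11.8 CPM in those labelled 0–1 hr (reads scaled to a common library size, replicates 1 to 3, with TMM factors). The gene slam, which is needed for the cellularization furrow, stood at 146, 188 and 160.4 CPM at the 1.5–2.5 hr label, against 1646, 1768 and 3789.9 CPM at the 0–1 hr label. Both zygotic markers were thus lower in every library labelled 1.5–2.5 hr. exu, a maternal gene for localization of bicoid RNA, had 332, 268 and 215 CPM at the 1.5–2.5 hr label, against 8.21, 13.6 and 10.4 CPM at the 0–1 hr label. cort, which encodes a female meiotic activator of the anaphase-promoting complex, had 75.4, 55.9 and 56.4 CPM against 1.27, 1.35 and 1.21 CPM. The maternal markers were thus higher in every library labelled 1.5–2.5 hr. The log2 differences, 1.5–2.5 hr label minus 0–1 hr label, were −7.55 ± 0.73 for eve, −3.86 ± 0.33 for slam, 4.66 ± 0.21 for exu and 5.6 ± 0.25 for cort (± SE, edgeR's quasi-likelihood test, adjusted p at most 7.7e-07). Each SE in this report is the size of the difference divided by the square root of the test's F statistic. It is approximate, above all for genes near 0 reads in a group. The value of eve was −6.95 without replicate 3 labelled 1.5–2.5 hr. Wild type gave the same signs, with −7.2, −4.81, 5.21 and 5.83. In both genotypes the names of the deposited tables carry the letter P for the libraries labelled 1.5–2.5 hr and a number in that place for those labelled 0–1 hr, with no meaning given for either in the sources used here. The study itself lists slam among zygotic RNAs that rise from 0–1 hr to 1.5–2.5 hr in both genotypes. Its direction for slam is thus opposite to that found here by the labels. No library was moved to another group. Each group keeps the name of its label, and each difference is the 1.5–2.5 hr label minus the 0–1 hr label. With the 2 labels exchanged in both genotypes, every such difference would turn its sign and keep its size, error and p. The same holds where this difference is compared between the genotypes. A level, or a ratio of SHMT over wild type, within 1 label would keep its value and belong to the other collection time.

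**Figure D1:**
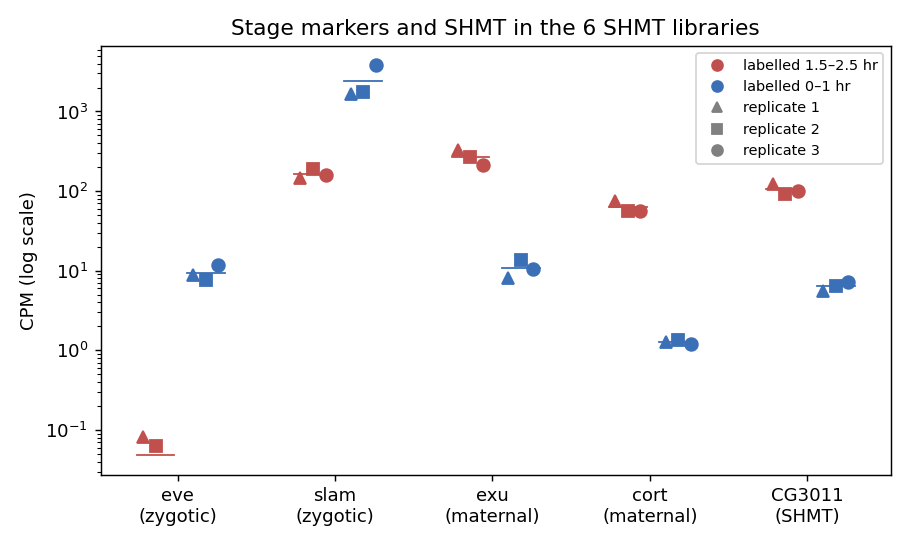
CPM on a log axis of 4 stage markers and of CG3011, the SHMT gene, in the 6 SHMT libraries, with the libraries labelled 1.5–2.5 hr in red left of those labelled 0–1 hr in blue. Symbols mark the replicates and lines the group means, eve is at 0 in replicate 3 labelled 1.5–2.5 hr and has no point there, and eve and slam are lower and exu, cort and CG3011 higher in every library labelled 1.5–2.5 hr.

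CG3011 RNA itself had 123, 91.3 and 101 CPM at the 1.5–2.5 hr label, against 5.52, 6.43 and 7.23 CPM at the 0–1 hr label, a difference of 4.04 ± 0.16 (adjusted p = 6.6e-10). Its groups did not overlap, and its change in wild type was 4.38 ± 0.16. The allele is a stop codon that leaves the gene in place, and its RNA is therefore no test of the genotype.

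Reads assigned to genes numbered 21045142 to 27783659 per library. The first principal component of the 6 held 96.54% of the variance and parted the 2 labels, at 78.38 to 100.47 for the 1.5–2.5 hr label against −95.9 to −83.5 for the 0–1 hr label. Pearson's r of log CPM across genes was 0.9828 to 0.9936 between replicates and 0.5519 to 0.6779 between libraries of different labels. The chi-square of 2 replicates, divided by its degrees of freedom, was 11.63 to 60.14, so none was a copy of another. The share of reads outside genes was 5.74 to 6.95% at the 1.5–2.5 hr label, against 8.83 to 11.4% at the 0–1 hr label, so it moved with the label, and its part in the differences was not tested. Of the marker genes of other tissues, none of 16 for chorion, vitelline membrane and yolk, 8 for testis, 8 for muscle and 7 for neurons reached the count minimum below. Their summed levels were at most 3.09 CPM in any of the 6 libraries. Of 10 genes of late epidermis, trachea, hemocytes and fat body 2 reached it. The scavenger receptor gene crq had 264, 287 and 291 CPM at the 1.5–2.5 hr label, against 65.2, 80.3 and 45.9 CPM at the 0–1 hr label. The chitin synthase gene kkv had 0.366, 56.8 and 0.696 CPM against 1.84, 2.29 and 2.32 CPM, so that its difference of 3.17 ± 1.31 (adjusted p = 0.038) rests on replicate 2 labelled 1.5–2.5 hr alone, without which it was under the minimum.

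Of 14161 gene symbols, 6701 had a mean of at least 50 counts in either SHMT group and were tested. At an adjusted p under 0.05 (edgeR's quasi-likelihood test, Benjamini-Hochberg over the 6701 genes), 2940 genes (43.9%) stood higher at the 1.5–2.5 hr label and 2945 (43.9%) stood lower. The 2 directions differed in size. Over 4-fold, 1562 genes (23.3%) were higher and 260 (3.88%) lower. Over 16-fold, the study's threshold between stages, 381 genes (5.69%) were higher and 217 (3.24%) lower. The count of 381 falls to 332 without replicate 1 labelled 0–1 hr and goes up to 414 without replicate 2 of that label, and the count of 217 stays between 211 and 227 when any library is left out.

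The genes that were lower fell into 2 separate ranges. Between −1.5 and −0.5 on the log2 scale lay 2328 genes, 34.7% of those tested, with the fullest bin at −1.25 to −1 (895 genes). Between −4 and −2 lay 43 genes, and below −4 lay 217. On the other side 1181 genes lay between 2 and 4 and 381 above 4, in 1 continuous slope. The median of all 6701 differences was −0.02, and without TMM factors (library sizes alone) it was 0.25, so each difference shifts up by that step. CPM are relative to the scaled library, and the scaling sets the zero of these differences. A small difference shared by many genes therefore cannot be told apart from no change in the amount of their RNA per embryo. At the 16-fold threshold, Sxl at −4.07 and CG32037 at −4.11 lay just inside on the lower side and sick at −3.94 and CG12986 at −3.88 just outside, where both lay near the count minimum. On the higher side rdgB and CG32666 both lay just inside, at 4.0015 and 4.0019, and CG9125 at 3.997 and mbc at 3.98 just outside. In bulk RNA of whole embryos, fewer nuclei or cells that express a gene and less RNA in each cannot be told apart.

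**Figure D2:**
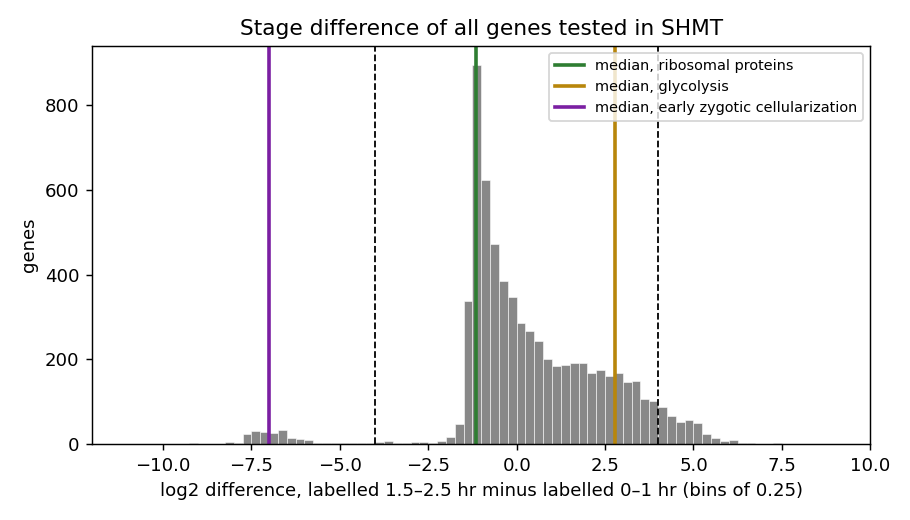
Number of genes in bins of 0.25 by their log2 difference, 1.5–2.5 hr label minus 0–1 hr label, for the 6701 genes tested in SHMT, with dashed lines at 16-fold and coloured lines at the medians of 3 lists. The bins are fullest between −1.25 and −1, where the median of the ribosomal protein genes lies, and a separate hump of 217 genes lies below −4, where the median of the cellularization genes is −7.01.

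The 217 genes that were over 16-fold lower took 0.0117, 0.0549 and 0.00876% of the reads in genes in the 3 libraries labelled 1.5–2.5 hr, against 2.40, 2.47 and 3.17% in those labelled 0–1 hr. All 217 had groups that did not overlap, as did 5972 (89.1%) of the 6701 genes tested, which is a description, since the genes were chosen by the size of this difference. Of the 217, 4 had no read at all at the 1.5–2.5 hr label. The 381 genes that were over 16-fold higher took 6.14, 5.11 and 5.24% of the reads at the 1.5–2.5 hr label, against 0.141, 0.197 and 0.168% at the 0–1 hr label. Of these, 379 had groups that did not overlap. Replicate 2 labelled 1.5–2.5 hr stood apart in the low group. It was the highest of its label for 186 of the 217 genes, and at the 0–1 hr label replicate 3 was the highest for 177. The median difference of the 217 genes was −6.93, and −8.60 without replicate 2 labelled 1.5–2.5 hr. The differences of zygotic genes given below are fitted over all 3 libraries, and for most of them the value without replicate 2 is larger in size. The lists below hold 63 of the 217 and 34 of the 381. Each list count of higher or lower genes stands beside 43.9% of all genes tested in each direction, a share that holds for TMM scaling.

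The 10 lowest differences among genes that averaged 100 or more counts belonged to dib, HLHm7, BobA, CG13465, l(1)sc, odd, CG4500, sca, Ance and zen2. dib, a cytochrome P450 of ecdysone synthesis, had no read in the 3 libraries labelled 1.5–2.5 hr, against 3.92, 4.86 and 8.95 CPM (83, 108 and 177 reads) at the 0–1 hr label, so it was at least 170.2-fold lower (floor of 3 reads over the 3 libraries). HLHm7 of the Enhancer of split complex, a repressor that acts below Notch, had 0, 1 and 1 reads at the 1.5–2.5 hr label, against 280, 293 and 289 reads at the 0–1 hr label, a ratio of 598-fold (exact 95% interval 165 to 4946). BobA, a Bearded family gene that dampens Notch signaling, had 0, 0.127 and 0.0632 CPM against 21.8, 19.3 and 32.4 CPM. All 3 were near or at the floor in every library labelled 1.5–2.5 hr. The proneural gene l(1)sc had 0.0407, 0.159 and 0.126 CPM at the 1.5–2.5 hr label, against 41.1, 36.1 and 20.2 CPM at the 0–1 hr label (−8.1 ± 0.39). The pair-rule gene odd had 0, 0.254 and 0 CPM against 32.9, 18.5 and 24.8 CPM (−8.06 ± 0.78), with reads in replicate 2 alone at the 1.5–2.5 hr label. sca, a secreted protein that modulates Notch, had 0.0407, 0.413 and 0.0632 CPM against 42.8, 30.9 and 59.4 CPM (−7.9 ± 0.71). The peptidase gene Ance, a target of BMP signaling, and the homeobox gene zen2 lay at −7.89 ± 0.48 and −7.84 ± 0.38, and CG13465 and CG4500 at −8.1 ± 0.5 and −8.01 ± 0.59. Without replicate 2 labelled 1.5–2.5 hr the differences of BobA, sca, Ance and zen2 were −9.29, −9.62, −8.82 and −8.77, and CG13465, odd and CG4500 had at most 1 read left at that label. None of the 10 overlapped between the labels, and the adjusted p was at most 1.1e-05.

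The 10 highest differences belonged to Xpac, Cyp6a19, BicC, Nplp3, CG8180, CG31075, CG3652, CG5721, CG9926 and sut1. Xpac, the fly homolog of the nucleotide excision repair factor XPA, had 21.3, 15.7 and 14.2 CPM at the 1.5–2.5 hr label, against 0.0472, 0.045 and 0.101 CPM at the 0–1 hr label (7.97 ± 0.32). The cytochrome P450 gene Cyp6a19 had 367, 278 and 272 CPM against 0.708, 1.62 and 2.38 CPM (7.61 ± 0.33). BicC, an RNA-binding repressor of translation in oogenesis, was the most abundant of the 10, with 1743, 1287 and 1497 CPM at the 1.5–2.5 hr label, against 6.14, 9.22 and 10.6 CPM at the 0–1 hr label (7.45 ± 0.23). CG8180 had 607, 433 and 503 CPM against 3.12, 6.07 and 3.84 CPM (6.88 ± 0.27), and the sugar transporter gene sut1 had 155, 122 and 116 CPM against 1.46, 1.8 and 1.87 CPM (6.25 ± 0.19). CG31075, CG3652, CG5721 and CG9926 lay between 6.34 and 6.61. These 9 did not overlap between the labels. Nplp3, a neuropeptide-like precursor gene, had 26, 0 and 300 reads at the 1.5–2.5 hr label, against 0, 0 and 1 reads at the 0–1 hr label. Most of its reads lay in replicate 3 labelled 1.5–2.5 hr, without which it did not reach the minimum, and its groups overlapped. Without replicate 1 labelled 0–1 hr the difference of CG3652 was 7.24.

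The segmentation genes were almost all in the low group. Gap genes divide the anterior-posterior axis into broad regions under maternal gradients, and pair-rule genes turn these regions into stripes. Of 11 gap and head gap genes tested (12 on the list), 10 were lower and 1 higher at the 1.5–2.5 hr label, with 9 over 16-fold lower and a median of −7.0, beside −0.02 for all genes tested. tll, which acts at the embryo's ends, had 0.203, 0.857 and 0.0948 CPM at the 1.5–2.5 hr label, against 69.1, 71.3 and 112 CPM at the 0–1 hr label (−7.71 ± 0.67). Kr, the gap gene of the central region, had 0.325, 3.91 and 0.474 CPM against 162, 190.2 and 278 CPM (−7.01 ± 0.68). In both genes replicate 2 stood above replicates 1 and 3 at the 1.5–2.5 hr label and far under every library labelled 0–1 hr. gt and kni lay at −7.0 ± 0.71 and −6.98 ± 0.78. Without replicate 2 labelled 1.5–2.5 hr these 4 lay at −9.19 (tll), −9.03 (Kr), −9.34 (gt) and −9.20 (kni). hb, which is supplied by the mother as well as transcribed in the zygote, differed far less, with 279.7, 226 and 259 CPM at the 1.5–2.5 hr label, against 364, 286 and 612 CPM at the 0–1 hr label (−0.72 ± 0.22, adjusted p = 0.0093). With library sizes alone its difference did not pass (adjusted p = 0.060). cnc was the gene that ran the other way (2.42 ± 0.19), with 361, 331 and 368 CPM against 59.6, 90.7 and 47.5 CPM.

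All 8 pair-rule genes tested (of 9) were over 16-fold lower, from −8.06 for odd to −5.75 for run, which was −6.44 without replicate 2 labelled 1.5–2.5 hr. ftz had 0.122, 0.699 and 0 CPM at the 1.5–2.5 hr label, against 43.3, 27.9 and 42 CPM at the 0–1 hr label (−7.03 ± 0.7, or −9.38 without replicate 2 labelled 1.5–2.5 hr). The pair-rule repressor h had 0.122, 0.127 and 0.126 CPM against 25, 14.4 and 27.8 CPM (−7.43 ± 0.63), and its 3 low values were nearly the same. The segment polarity genes act later, and 2 of 8 reached the minimum. The Wnt ligand wg had no read at the 1.5–2.5 hr label, against 3.63, 1.84 and 2.53 CPM at the 0–1 hr label, at least 77.7-fold lower, and without replicate 1 labelled 0–1 hr it was under the minimum. The Hedgehog receptor gene ptc had 0.325, 0.635 and 0.569 CPM against 17.7, 15.6 and 37.2 CPM (−5.48 ± 0.54). None of the 8 homeotic genes, which follow the segmentation genes, reached the minimum, and their summed level was 0.0953 to 0.158 CPM at the 1.5–2.5 hr label, against 0.85 to 1.26 CPM at the 0–1 hr label.

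Along the dorsoventral axis the maternal Dorsal gradient sets out mesoderm, neuroectoderm and dorsal ectoderm. The mesoderm determinants twi and sna had 0.203, 2.64 and 0.19 CPM and 0.285, 1.65 and 0.0948 CPM at the 1.5–2.5 hr label, against 74.8, 75 and 148 CPM and 64.1, 82.1 and 134 CPM at the 0–1 hr label (−6.55 ± 0.77 and −7.05 ± 0.73, or −8.99 and −9.03 without replicate 2 labelled 1.5–2.5 hr). Of the 6 genes of the ventral list tested, 3 were lower, all over 16-fold, and 3 were higher, none over 16-fold. The higher ones were T48 (3.3 ± 0.16) and fog (1.22 ± 0.24), which act in the folding of the mesoderm, and the muscle transcription factor gene Mef2 (3.29 ± 0.26). Mef2 had 90.7, 86.6 and 90.8 CPM at the 1.5–2.5 hr label, against 11.5, 11.3 and 4.55 CPM at the 0–1 hr label. Of 7 neuroectoderm genes, 6 were over 16-fold lower. The BMP antagonist sog had 0, 0.445 and 0.0948 CPM against 38.4, 20.8 and 52 CPM (−7.55 ± 0.84, or −9.36 without replicate 2 labelled 1.5–2.5 hr). rho, a protease that releases EGF ligands, lay at −5.94 ± 0.41. The EGF receptor ligand vn did not pass (0.52 ± 0.3, adjusted p = 0.12), and its groups overlapped.

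Of 10 genes of the dorsal ectoderm, 9 were over 16-fold lower and 1 over 16-fold higher. The BMP ligand scw was the most abundant, with 1.38, 7.78 and 0.506 CPM at the 1.5–2.5 hr label, against 543, 499.7 and 486 CPM at the 0–1 hr label (−7.28 ± 0.85). The second BMP ligand dpp had 0.0407, 0.159 and 0.0948 CPM against 14.2, 11.4 and 28 CPM (−7.38 ± 0.56). The homeobox gene zen and the BMP modulator tsg lay at −6.8 ± 0.52 and −7.57 ± 0.57. Without replicate 2 labelled 1.5–2.5 hr, scw, zen and tsg lay at −9.17, −7.80 and −9.12. The exception was ush, a cofactor of GATA factors, with 15.4, 9.4 and 11.7 CPM at the 1.5–2.5 hr label, against 0.283, 0.405 and 0.354 CPM at the 0–1 hr label (5.11 ± 0.34). Both BMP ligands were thus lower together with their modulators and targets on the list, while ush was higher in every library labelled 1.5–2.5 hr.

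Sex in the fly is set by the dose of a few early X-linked genes that switch on Sxl. All 5 genes of this list were over 16-fold lower. sisA, an X-linked counting element, had 0.163, 2.57 and 0.19 CPM at the 1.5–2.5 hr label, against 80.1, 139 and 246 CPM at the 0–1 hr label (−7.24 ± 0.8, or −9.77 without replicate 2 labelled 1.5–2.5 hr). The counting elements sc and os, a JAK/STAT ligand, lay at −7.04 ± 0.57 and −7.46 ± 0.51, and dpn, an autosomal repressor, at −6.68 ± 0.39. Without that library these 3 lay at −7.89, −8.52 and −7.47. Sxl, the master gene, was the smallest at −4.07 ± 0.46, with 6.06, 5.27 and 3.95 CPM against 84, 48.3 and 123 CPM. Of 13 Enhancer of split and Bearded family genes 6 were tested, and all 6 were over 16-fold lower. Tom, of the Bearded family, had 0.407, 6.54 and 0.506 CPM against 203, 311 and 491 CPM (−7.03 ± 0.82, or −9.53 without replicate 2 labelled 1.5–2.5 hr), and Brd lay at −6.46 ± 0.58, or −8.53 without that library.

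The cellularization genes made up the largest share of the zygotic reads. This list holds early zygotic genes expressed around cellularization and genes that pause the nuclear cycles, and all 9 were lower, 6 of them over 16-fold. bnk, which restrains the actin network of the furrow, had 3.01, 24.4 and 1.17 CPM at the 1.5–2.5 hr label, against 1015, 1073 and 1619 CPM at the 0–1 hr label (−7.01 ± 1.12). Sry-alpha, an actin regulator of the furrow, had 7.48, 28.5 and 7.78 CPM against 979, 1155 and 1722 CPM (−6.45 ± 0.6). halo, a factor in lipid droplet transport, had 1.34, 12.5 and 0.759 CPM against 792, 849.9 and 1145 CPM (−7.55 ± 1.04). In these 3 genes replicate 2 was the highest at the 1.5–2.5 hr label and replicate 3 the highest at the 0–1 hr label. nullo, which stabilizes the furrow, and CG34137, now named dunk, lay at −7.06 ± 0.71 and −7.15 ± 0.97. Z600, also called frs, which inhibits Cdk1 to hold interphase, lay at −7.39 ± 0.92. Without replicate 2 labelled 1.5–2.5 hr, bnk, Sry-alpha, halo, nullo, CG34137 and Z600 lay at −9.29, −7.43, −9.85, −8.72, −9.26 and −9.48.

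The other 3 cellularization genes were well detected at both labels. kuk, a nuclear envelope protein, had 601, 682 and 654 CPM at the 1.5–2.5 hr label, against 3221, 3204 and 3922 CPM at the 0–1 hr label (−2.42 ± 0.11). slam lay at −3.86 ± 0.33, with the values given with the stage markers. trbl, which promotes the breakdown of the String phosphatase, had 46.8, 39.6 and 38.4 CPM against 143, 140.3 and 238 CPM (−2.06 ± 0.22). The differences of these 3 were thus smaller in size than that of nullo. nullo had 0.936, 4.54 and 0.411 CPM at the 1.5–2.5 hr label, against 286, 248 and 268 CPM at the 0–1 hr label. Of the 4 gut and posterior genes, fkh was over 16-fold lower (−6.89 ± 0.94, with reads at the 1.5–2.5 hr label in replicate 2 alone), cad, which the mother also supplies, was higher (1.13 ± 0.17), and srp did not pass (−0.86 ± 0.54, adjusted p = 0.15).

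Over all zygotic lists together, 68 of 104 genes were tested, 60 were lower and 6 higher, and 56 were over 16-fold lower with 1 over 16-fold higher. The median was −6.97, or −6.92 with the gene at 0 set to its bound. The 56 genes summed to 31.5, 149 and 22.1 CPM in replicates 1 to 3 labelled 1.5–2.5 hr, against 7101, 7405 and 10300.0 CPM in those labelled 0–1 hr. Replicate 2 labelled 1.5–2.5 hr thus held 5.56 times the mean of the other 2. It was the highest of its group for 53 of the 56 genes, and at the 0–1 hr label replicate 3 was the highest for 46. The median difference of the 56 was −7.04, and −9.01 without replicate 2 labelled 1.5–2.5 hr. Without replicate 2 labelled 1.5–2.5 hr, 221 genes were over 16-fold lower, and without replicate 3 labelled 0–1 hr 211 were.

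**Figure D3:**
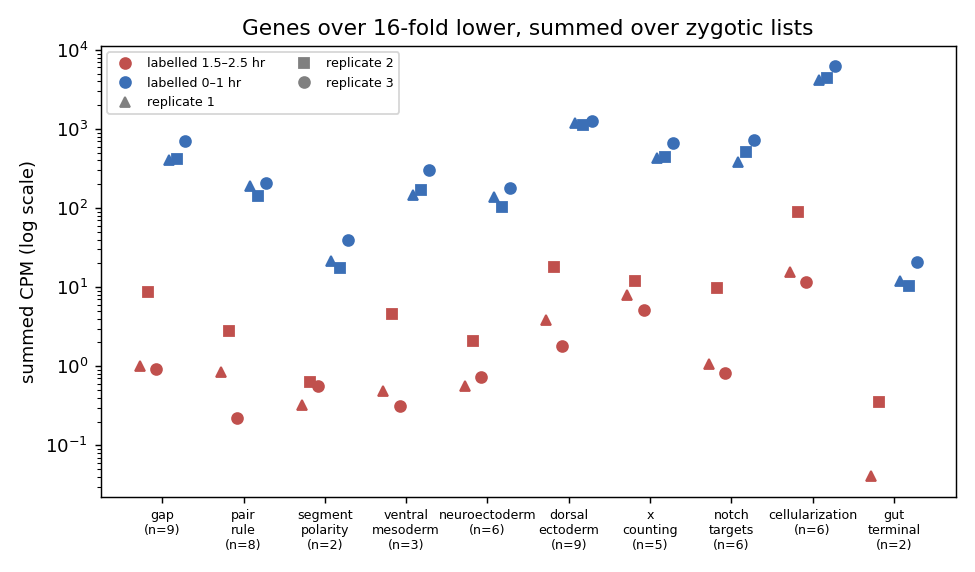
Summed CPM on a log axis of the genes over 16-fold lower in each zygotic list, in the 3 SHMT libraries labelled 1.5–2.5 hr (red, left) and the 3 labelled 0–1 hr (blue, right), with n the number of genes and symbols the replicates. The groups do not overlap in any list, replicate 2 is the highest of the 1.5–2.5 hr label in all 10 lists and replicate 3 the highest of the 0–1 hr label, and the gut list is at 0 and has no point in replicate 3 labelled 1.5–2.5 hr.

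The maternal lists showed no such common movement. Of 18 maternal axis genes tested, 11 were higher and 5 lower, 2 of them over 16-fold higher, with a median of 0.78. The share of all genes tested was 43.9% in each direction. dl, the transcription factor of the dorsoventral gradient, had 159, 163 and 160.1 CPM at the 1.5–2.5 hr label, against 5.66, 7.19 and 4.35 CPM at the 0–1 hr label (4.8 ± 0.17), and exu was the other over 16-fold. spz, the ligand of the Toll receptor, had 172, 179 and 180.3 CPM against 31.9, 49.96 and 20.2 CPM (2.38 ± 0.24). The Toll receptor gene Tl itself was lower (−1.1 ± 0.11). It had 649.8, 849.7 and 827 CPM at the 1.5–2.5 hr label, against 1739, 1618 and 1642 CPM at the 0–1 hr label. cact, the inhibitor of Dorsal, was lower as well (−1.21 ± 0.06), and tor, the receptor of the terminal system, lay at −0.55 ± 0.14. The anterior determinant bcd did not pass (0.31 ± 0.21, adjusted p = 0.19), and its groups overlapped. Other Toll pathway genes on the list were mixed. tub (0.66) and gd (0.89) were higher, pll (−0.60) and ea (−0.99) lower, and snk did not pass. Tl and cact lay between −1.5 and −0.5, as 34.7% of all genes tested did.

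Germ plasm is the posterior cytoplasm that makes the germ cells. Of 13 genes of the germ plasm and of the piRNA pathway, which silences transposons, 8 were higher and 4 lower. osk, which assembles germ plasm, had 691, 519 and 495 CPM at the 1.5–2.5 hr label, against 16.9, 66.9 and 83.5 CPM at the 0–1 hr label (3.35 ± 0.43), and replicate 1 labelled 0–1 hr was far below the other 2. The scaffold gene tud had 305, 321 and 359 CPM against 14.7, 22.5 and 18.7 CPM (4.14 ± 0.2). The helicase gene vas and the germ cell repressor pgc lay at 2.85 ± 0.17 and 2.15 ± 0.14, and nos, a translational repressor, at 0.9 ± 0.15. gcl lay just past the threshold (0.34 ± 0.15, adjusted p = 0.042), which it missed when any library labelled 1.5–2.5 hr was left out. The piRNA genes mael and AGO3 were lower (−1.31 ± 0.08 and −1.15 ± 0.15).

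Of 13 genes of meiosis and egg activation, 7 were higher, 4 of them over 16-fold, and 5 lower. Beside cort these 4 were mos, the oocyte kinase upstream of MAP kinase, with 89.9, 87.2 and 88.6 CPM at the 1.5–2.5 hr label, against 1.65, 3.51 and 1.97 CPM at the 0–1 hr label (5.21 ± 0.23). alphaTub67C, the maternal alpha tubulin, had 721, 648 and 588 CPM against 14.5, 21.7 and 18 CPM (5.17 ± 0.17). mtrm, which inhibits Polo kinase in the oocyte, had 662, 715 and 703 CPM against 30.5, 52.2 and 34.2 CPM (4.15 ± 0.18). The kinase gene png, which activates translation at egg activation, lay at 3.61 ± 0.17. The Cdc25 phosphatase gene twe and the calcineurin regulator sra were lower (−0.97 ± 0.09 and −0.69 ± 0.11).

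Of 17 genes of RNA decay and translational repression, 10 were higher, 4 lower and 3 did not pass. BicC, aret and orb, RNA-binding regulators of oogenesis, were over 16-fold higher. aret had 854, 702 and 764 CPM at the 1.5–2.5 hr label, against 29.8, 50.9 and 38.3 CPM at the 0–1 hr label (4.29 ± 0.17), and orb lay at 4.28 ± 0.26. smg, which targets maternal RNAs for decay, was abundant at both labels, with 2452, 2793 and 2813 CPM against 1472, 1329 and 723 CPM (1.19 ± 0.22). brat, a repressor that binds maternal RNAs, had 734, 746 and 839 CPM against 104, 98 and 62 CPM (3.13 ± 0.19). The repressor me31B and the deadenylase Pop2 did not pass (−0.01 ± 0.09 and −0.05 ± 0.09, adjusted p = 0.89 and 0.59), and me31B passed with the other sign when library sizes alone were used (0.25, adjusted p = 0.025).

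Among regulators of zygotic genome activation, 1 of 6 was higher and 5 lower. vfl, the gene of the pioneer factor Zelda, had 442, 280.3 and 448 CPM at the 1.5–2.5 hr label, against 140.2, 119 and 187 CPM at the 0–1 hr label (1.39 ± 0.23). grh, a later pioneer factor, had 0.285, 0.159 and 0.0316 CPM against 5.29, 3.01 and 3.54 CPM (−4.68 ± 0.59, or −5.34 without replicate 1 labelled 1.5–2.5 hr). CG1832 (now Clamp), BEAF-32 and Stat92E lay between −1.23 and −0.96, and the GAGA factor gene Trl at −0.57 ± 0.2. Of the 5 histone variant genes tested, 2 were higher and 3 lower. The centromeric histone gene cid had 70.3, 68 and 63.4 CPM against 2.5, 4.41 and 3.54 CPM (4.27 ± 0.21), while His2Av and His3.3A were lower (−1.16 ± 0.06 and −1.2 ± 0.09).

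**Figure D4:**
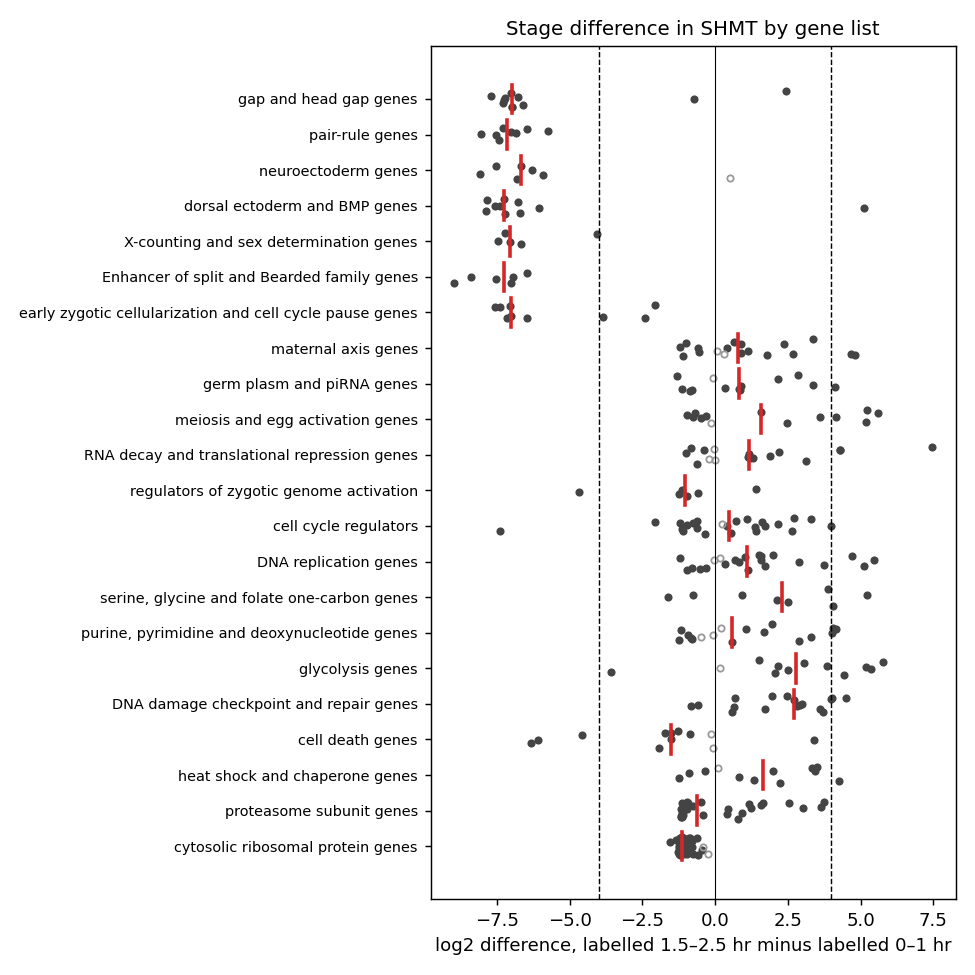
Log2 differences, 1.5–2.5 hr label minus 0–1 hr label, of the tested members of 22 gene lists in SHMT, with filled points past an adjusted p of 0.05, open points not, red bars at the list medians and dashed lines at 16-fold. The first 7 lists, all zygotic, lie mostly below −4, the maternal and cell cycle lists lie on both sides of 0, and the ribosomal protein genes are packed near −1.14.

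The cell cycle genes also lay on both sides. Of 24 regulators, 13 were higher, 10 lower and 1 did not pass, beside 43.9% of all genes in each direction. stg, the Cdc25 phosphatase whose RNA is cleared at the mid-blastula transition, had 666, 715 and 664 CPM at the 1.5–2.5 hr label, against 157, 186 and 118 CPM at the 0–1 hr label (2.15 ± 0.17). mei-41, the fly ATR kinase of the replication checkpoint, had 38.1, 29.8 and 26.4 CPM against 1.56, 1.53 and 2.93 CPM (3.97 ± 0.32), the largest positive difference of the list. dap, a Cdk inhibitor of the p27 type, lay at 3.28 ± 0.14, CycE at 1.63 ± 0.16 and CycB at 1.1 ± 0.14. CycA did not pass (0.25 ± 0.11, adjusted p = 0.052). cdc2, the Cdk1 gene, and the anaphase activator fzy were lower (−1.22 ± 0.09 and −1.1 ± 0.08), and the lowest was Z600.

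Of 22 DNA replication genes, 15 were higher, 3 of them over 16-fold, and 5 lower. CDC45L, a part of the replicative helicase, had 322, 323 and 320.1 CPM at the 1.5–2.5 hr label, against 4.58, 10.1 and 7.02 CPM at the 0–1 hr label (5.47 ± 0.22). Orc2 of the origin recognition complex had 112, 110.3 and 100 CPM against 2.83, 3.15 and 3.18 CPM (5.13 ± 0.21). The PCNA gene mus209 was little higher (0.35 ± 0.1), and Mcm7, a helicase subunit, was lower (−1.2 ± 0.07). Among the 17 genes of the DNA damage response, 15 were higher and 2 lower, with a median of 2.72 beside −0.02 for all genes. Brca2 and the repair helicase gene mus301 were over 16-fold higher (4.49 ± 0.19 and 4.01 ± 0.17). mus301 had 103, 99.8 and 94 CPM at the 1.5–2.5 hr label, against 5.76, 7.64 and 4.95 CPM at the 0–1 hr label. The 2 lower ones were p53 (−0.84 ± 0.11) and mre11 (−0.58 ± 0.08).

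The cell death genes went mostly the other way, with 9 of 12 lower, 1 higher and 2 not past the test, and a median of −1.52, beside 43.9% of all genes lower and a median of −0.02. skl and rpr, which inhibit the caspase inhibitor Diap1, and egr, the TNF ligand, were over 16-fold lower. rpr had 0.0407, 0.159 and 0.0316 CPM at the 1.5–2.5 hr label, against 5.48, 5.08 and 6.57 CPM at the 0–1 hr label (−6.08 ± 0.53), and skl had 0, 0.127 and 0 CPM against 5.71, 3.06 and 3.29 CPM (−6.33 ± 0.66), both lower still without replicate 2 labelled 1.5–2.5 hr (−7.18 for rpr, and no read left for skl). egr had 1.14, 1.27 and 1.45 CPM against 32, 31.5 and 30.7 CPM (−4.59 ± 0.29). W (hid) and the caspase gene Nc lay at −1.51 ± 0.25 and −1.72 ± 0.08. The higher one was debcl, of the Bcl-2 family (3.41 ± 0.13).

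Serine hydroxymethyl transferase works within one-carbon metabolism. On this list 6 of the 8 genes tested (of 12) were higher and 2 lower, beside 43.9% of all genes in each direction. Their median was 2.31. CG3011 was over 16-fold higher, with the values given above. Ahcy13, for adenosylhomocysteinase, had 399, 317 and 329.8 CPM at the 1.5–2.5 hr label, against 22.3, 22.4 and 25.6 CPM at the 0–1 hr label (3.89 ± 0.14). Nmdmc, a mitochondrial folate dehydrogenase, and ppl, of the glycine cleavage system, lay at 2.49 ± 0.24 and 2.13 ± 0.17, and thymidylate synthase (Ts) at 0.93 ± 0.15. The lower ones were Sam-S, for S-adenosylmethionine synthetase, with 439, 512 and 496 CPM against 1528, 1462 and 1501 CPM (−1.63 ± 0.08), and pug, a cytosolic folate enzyme (−0.75 ± 0.2). The list's summed level was nonetheless lower at the 1.5–2.5 hr label, 1197, 1158 and 1158 CPM, against 1693, 1639 and 1702 CPM, since Sam-S is its most abundant member.

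Of 17 genes of nucleotide synthesis, 9 were higher, 3 of them over 16-fold, and 5 lower, beside 43.9% of all genes in each direction. RnrS, the small subunit of ribonucleotide reductase, had 697, 666 and 642 CPM at the 1.5–2.5 hr label, against 33.9, 40.02 and 37.2 CPM at the 0–1 hr label (4.17 ± 0.24), and the large subunit RnrL lay at 1.95 ± 0.11. Prat, the first enzyme of purine synthesis, had 97.1, 79.3 and 79.1 CPM against 4.3, 5.17 and 6.22 CPM (4.03 ± 0.19), and ras, IMP dehydrogenase, lay at 4.05 ± 0.21. The GMP synthetase gene bur and dUTPase were lower (−1.23 ± 0.07 and −1.18 ± 0.09). Glycolysis genes were higher in 10 of 12 cases, 4 of them over 16-fold, beside 43.9% and 5.69% of all genes. Their median was 2.78. Tpi, Gapdh2 and Pgi lay at 5.77 ± 0.38, 5.37 ± 0.23 and 5.2 ± 0.38. Gapdh2 was the most abundant of these 3, with 1084, 912 and 849 CPM at the 1.5–2.5 hr label, against 14.8, 26.5 and 27.3 CPM at the 0–1 hr label. Ald did not pass (0.17 ± 0.12, adjusted p = 0.19). ImpL3, the lactate dehydrogenase gene, ran the other way with 0.814, 0.603 and 0.948 CPM against 8.92, 8.14 and 11.3 CPM (−3.58 ± 0.25).

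Of 12 heat shock and chaperone genes tested, 8 were higher and 3 lower. Hsp26 had 1686, 1476 and 1535 CPM at the 1.5–2.5 hr label, against 58.9, 89.5 and 97.4 CPM at the 0–1 hr label (4.26 ± 0.17). Hsp83, the fly Hsp90, had 3484, 3402 and 3289 CPM against 268, 397 and 341 CPM (3.34 ± 0.16), and the mitochondrial chaperonin Hsp60 lay at 3.51 ± 0.24. Hsp23 was lower (−1.24 ± 0.15). Among 9 glutathione transferase genes, 3 were over 16-fold higher and 5 lower. GstD1 had 864, 718 and 743 CPM against 8.69, 16.7 and 13.3 CPM (5.91 ± 0.24), and GstD3 and GstE6 lay at 5.11 ± 0.35 and 5.03 ± 0.21. GstD genes are near copies of one another, so reads of GstD3 may be split or shared with its neighbors. GstS1 was among the lower ones (−1.14 ± 0.08). Of 17 cytochrome P450 genes tested, 7 were higher and 5 lower. Beside Cyp6a19, Cyp6a9 was over 16-fold higher (5.1 ± 0.45), and Cyp310a1 and Cyp312a1 were over 16-fold lower (−7.3 ± 0.62 and −6.62 ± 0.76). Without replicate 2 labelled 1.5–2.5 hr the lower ones lay at −9.98 and −8.56, and without replicate 2 labelled 0–1 hr Cyp6a9 lay at 6.21. Of 9 antioxidant genes, 5 were higher and 3 lower, with the glutathione synthesis gene Gclc at 3.67 ± 0.15 and catalase (Cat) at −1.81 ± 0.13.

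The genes of the ribosome lay close together, at small differences. Of 81 cytosolic ribosomal protein genes tested, 79 were lower and none was higher, all between −1.56 and −0.24, with a median of −1.14. With library sizes alone the median was −0.87 and 78 were lower. They summed to 66122, 74873 and 68215 CPM at the 1.5–2.5 hr label, against 143676, 145988 and 154057 CPM at the 0–1 hr label. This median lies in the fullest bin of all genes. Since CPM are relative, it does not show that the amount of these RNAs per embryo differed. Mitochondrial ribosomal protein genes were mixed, with 23 of 71 higher and 42 lower. The 28 proteasome genes tested held 12 higher and 16 lower, and they split by particle, a split that was looked for after the values had been seen. All 12 genes of the 20S core were lower, by a median of −1.08, and of 16 genes of the 19S particle 12 were higher and 4 lower. The core median lies in the fullest bin of all genes too, so it is not particular to the core. Rpn11, the deubiquitinase of the 19S particle, had 235, 207 and 213 CPM at the 1.5–2.5 hr label, against 13.2, 19.2 and 16.2 CPM at the 0–1 hr label (3.75 ± 0.17), whereas the core gene Prosbeta3 had 224, 249.6 and 219.8 CPM against 517, 517 and 527 CPM (−1.17 ± 0.08).

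Of 18 furrow and actomyosin genes tested, 5 were higher and 10 lower. RhoGEF2, which activates Rho1 at the furrow, had 156, 113 and 114 CPM at the 1.5–2.5 hr label, against 9.06, 11.2 and 10.8 CPM at the 0–1 hr label (3.62 ± 0.24). The myosin light chain gene sqh and the actin gene Act5C were lower (−1.27 ± 0.08 and −1.06 ± 0.07). Of the 4 tubulin genes tested, alphaTub67C was higher and 3 were lower, among them alphaTub84B (−0.95 ± 0.14). Of 12 adhesion and polarity genes, 2 were higher and 8 lower. The higher ones were the apical determinants crb (1.26 ± 0.22) and sdt (2.56 ± 0.51). Ama and Nrt, a secreted ligand and its membrane receptor in cell adhesion, were the lowest. Ama had 0.0814, 0.191 and 0.126 CPM at the 1.5–2.5 hr label, against 11.8, 12.7 and 17.5 CPM at the 0–1 hr label (−6.63 ± 0.57), and Nrt had 79.2, 96.6 and 80.9 CPM against 766, 789 and 1479 CPM (−3.56 ± 0.24).

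The 2 sets over 16-fold differed in gene structure and in chromosome, which the test had not used (transcript of the gene in Ensembl's annotation of BDGP6, another build than that of the counts). Of the 217 lower genes 214 had an annotated structure, and 66 of these (30.8%) had no intron. Among the 381 higher genes 36 of 376 (9.57%) had none, beside 9.49% of all genes tested. The median transcript length was 1834.5 bases for the lower genes and 2177 for the higher ones, beside 2055 for all. The X chromosome held 24 (11.2%) of the lower and 95 (25.3%) of the higher genes, beside 17.5% of all genes tested. These shares are descriptions without a test.

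Almost all genes that were over 16-fold in SHMT moved the same way in wild type. All 217 genes over 16-fold lower in SHMT were lower past the test in wild type, where 45.2% of the 6701 genes were lower, and 212 of them were over 16-fold lower there, beside 3.54% of all genes. Their median difference was −6.93 in SHMT and −7.15 in wild type. Of the 381 genes over 16-fold higher in SHMT, 377 were higher past the test in wild type (46.2% of all genes were) and 341 were over 16-fold higher (11.9%). Their median difference was 4.66 in SHMT and 5.27 in wild type. Seen from wild type the overlap was smaller on the higher side. There 798 genes were over 16-fold higher and 237 lower, and 341 and 212 of these were so in SHMT. Only genes that reached the count minimum in SHMT were tested. The libraries of the 2 genotypes are separate. Being over 16-fold in SHMT chose these genes, so their sizes in SHMT are not free of that choice.

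The change itself differed between SHMT and wild type by over 4-fold for 197 genes (2.94% of 6701, interaction of genotype and label, edgeR, adjusted p under 0.05). It was more positive in SHMT for 32 genes (0.478%) and more negative for 165 (2.46%). The count was 144 without SHMT replicate 2 labelled 0–1 hr and 252 without SHMT replicate 3 of that label. For the 165 genes the median difference was 2.38 in SHMT and 4.86 in wild type, and 152 of them were higher past the test at the 1.5–2.5 hr label in SHMT. In 159 of the 165, all 3 SHMT libraries labelled 0–1 hr stood above all 3 wild-type libraries with that label, as 2108 of the 6701 genes tested did. Their median log2 ratio of SHMT over wild type was −0.14 at the 1.5–2.5 hr label and 2.13 at the 0–1 hr label (group mean CPM plus 0.1). At the 1.5–2.5 hr label, all 3 SHMT libraries stood below all 3 of wild type in 75 of the 165, as 1649 of the 6701 did. The larger of the 2 median ratios was thus that at the 0–1 hr label, where SHMT stood higher. At that label the zygotic markers were higher and the maternal ones lower in both genotypes. The label therefore does not place this difference at the earlier stage. For CG15047, Pvf1 and Trs23, described below, the study lists a larger genotype difference at 1.5–2.5 hr than at 0–1 hr. By the labels used here, these genes had the larger one at 0–1 hr. Of the zygotic list genes tested, 1 of 68 had an interaction over 4-fold, and of the maternal list genes 2 of 70. The genotypes differed in more than SHMT. The mutant chromosome also carried the marker pn, and the clones were induced by heat shock of larvae, which is not described for wild type. The study reports that most mutants arrest before the last syncytial division, and that its later collection mixed normal-looking and defective mutant embryos. The part of strain, heat shock and arrest in these interactions was not tested.

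**Figure D5:**
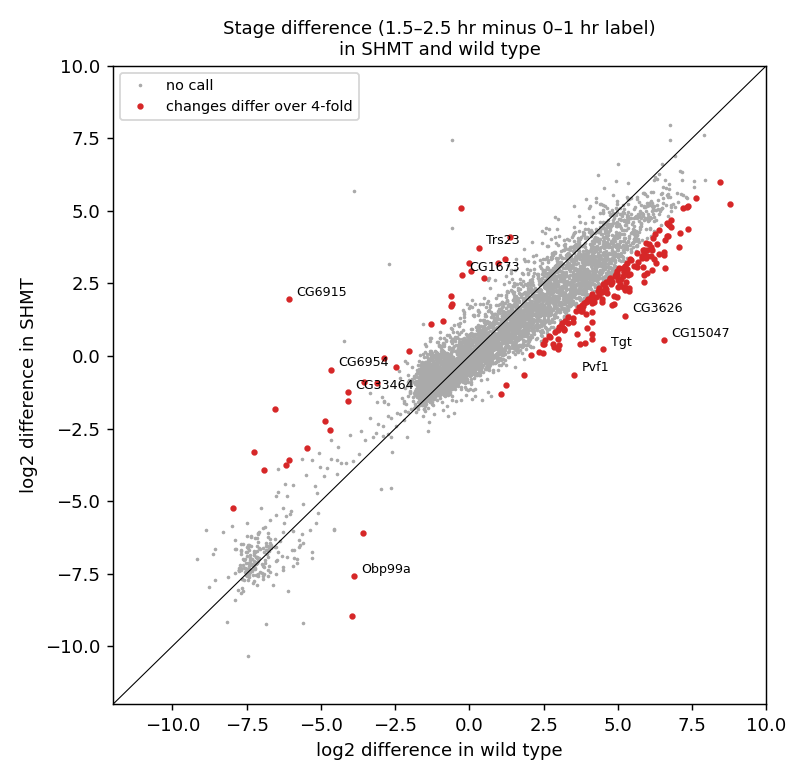
Log2 difference, 1.5–2.5 hr label minus 0–1 hr label, in SHMT (vertical axis) against that in wild type (horizontal axis) for the 6701 genes tested, with the diagonal of equal change. Red points are the 197 genes whose changes differ by over 4-fold, 165 of them below the diagonal and 32 above it, and the 10 genes chosen for the text are named.

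The 5 most negative interactions, among genes that averaged at least 100 counts in the higher group of SHMT and of wild type alike, were those of CG15047, Tgt, Pvf1, CG3626 and Obp99a. CG15047 had 64.1, 64.5 and 64.5 CPM at the 1.5–2.5 hr label, against 42.5, 46.8 and 44.1 CPM at the 0–1 hr label in SHMT, and 30.2, 44.8 and 37.7 CPM against 0.306, 0.791 and 0.15 CPM in wild type. Its changes were 0.53 ± 0.18 in SHMT and 6.56 ± 0.29 in wild type, an interaction of −6.02 ± 0.35 (adjusted p = 1.2e-06). Its RNA was thus high at both labels in SHMT, and low at the 0–1 hr label in wild type. Pvf1, a ligand of the PDGF/VEGF receptor, had 55.2, 62.9 and 57.5 CPM against 93.2, 82.7 and 98.2 CPM in SHMT, and 65.2, 65.3 and 65.9 CPM against 4.55, 7.58 and 5.05 CPM in wild type, so that the sign of its change differed between the genotypes (−4.17 ± 0.21). Tgt, a tRNA-guanine transglycosylase, did not pass in SHMT (0.23 ± 0.19, adjusted p = 0.28), where the groups overlapped, and changed by 4.51 ± 0.25 in wild type (−4.28 ± 0.32). CG3626 was higher at the 1.5–2.5 hr label in both genotypes, by 1.38 ± 0.13 in SHMT and 5.25 ± 0.17 in wild type. Obp99a, of the odorant-binding protein family, was lower in both, by −7.59 ± 0.57 in SHMT (−8.42 without replicate 2 labelled 1.5–2.5 hr) and −3.88 ± 0.39 in wild type.

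The 5 most positive interactions under the same minimum were those of CG6915, CG6954, Trs23, CG1673 and CG33464. Trs23, a subunit of the TRAPP complex in vesicle traffic, had 20.5, 22.2 and 19 CPM at the 1.5–2.5 hr label, against 1.56, 1.48 and 1.62 CPM at the 0–1 hr label in SHMT, and 19.3, 23.6 and 20.7 CPM against 16.9, 18.1 and 16.3 CPM in wild type. It changed by 3.73 ± 0.13 in SHMT and by 0.31 ± 0.11 in wild type, an interaction of 3.42 ± 0.17 (adjusted p = 7.2e-07). CG6915, part of the gene now annotated as CG43163, had 28.7, 13 and 15.8 CPM against 4.2, 3.1 and 7.53 CPM in SHMT, and 0.442, 0.378 and 0.412 CPM against 39.4, 14 and 31 CPM in wild type, with opposite signs (1.96 ± 0.42 and −6.09 ± 0.54). CG6954 (now wake) did not pass in SHMT (−0.47 ± 0.51, adjusted p = 0.39) and changed by −4.67 ± 0.59 in wild type. CG1673, a branched-chain aminotransferase gene, changed by 2.8 ± 0.47 in SHMT and by −0.23 in wild type, and CG33464, listed now as a synonym of sli, by −1.25 ± 0.29 and −4.09 ± 0.31.

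Among list members, stg changed by 2.15 ± 0.17 in SHMT and 4.62 ± 0.19 in wild type (−2.47 ± 0.23, adjusted p = 2.7e-05). Its level at the 1.5–2.5 hr label was 666, 715 and 664 CPM in SHMT and 579, 572 and 571 CPM in wild type, and at the 0–1 hr label 157, 186 and 118 CPM in SHMT and 17.9, 26.2 and 26 CPM in wild type. The genotypes thus parted at the 0–1 hr label, where the zygotic markers were higher and the maternal ones lower in both. osk (−2.86 ± 0.58) and mus301 (−2.58 ± 0.26) followed the same pattern, with 16.9, 66.9 and 83.5 CPM of osk at the 0–1 hr label in SHMT and 11.5, 14.2 and 15.8 CPM in wild type. The filamin gene cher had the opposite sign (2.18 ± 0.31), with 11.4, 11.8 and 14.1 CPM at the 0–1 hr label in SHMT and 61, 68.5 and 103 CPM in wild type. GstD3 changed by 5.11 ± 0.35 in SHMT, but in wild type it stood at 0.111, 0.151 and 0.192 CPM and 0.42, 0.0565 and 0 CPM at the 2 labels, so no change could be measured there. Of the 9 cellularization genes, kuk passed the interaction (0.49 ± 0.15, adjusted p = 0.022), at under 4-fold, and the other 8 did not, with differences between 0.94 for slam and −0.04 for halo and adjusted p from 0.094 to 0.98.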

How the data were processed

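The submitters' processing notes name CASAVA 1.8.2, Bowtie2 2.1.0, the build dm3 and HTSeq. The version and strandedness of HTSeq were not given in the sources used here. Reads of overlapping or antisense genes are thus uncertain. The authors deposited 1 table of raw counts per library, for 14161 gene symbols and 5 summary lines. These lines held 7.21 to 12.8% of the reads of the SHMT libraries and stayed out of library sizes and tests. The HiSeq reads came from total RNA of whole embryos. Gene names were matched to BDGP6 for 13904 symbols.

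Genes that averaged 50 or more counts in either SHMT group were fitted with edgeR 4.0.16 (limma 3.58.1, R 4.3.3), a quasi-likelihood model of 4 group means over all 12 libraries with TMM scaling, Benjamini-Hochberg adjustment and a threshold of 0.05. The study's folds, 16 between stages and 4 between genotypes, defined the calls. Genes with no read in a group were given a bound from a floor of 3 counts. Bounds and intervals cover counting error only. An exact permutation test of 3 against 3 libraries cannot go below p = 0.1, so none is given.

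The genes named are the stage markers, the 10 highest and 10 lowest differences among calls over 16-fold with at least 100 counts, the 5 extremes of the interaction in each direction among genes with at least 100 counts in both genotypes, and list members that differed most, did not pass or ran against their list. Members and lists were chosen with earlier results of these data known. The proteasome split, sick and the other genes next to the threshold were chosen after their values were seen. Alternatives were RLE scaling, library sizes alone, DESeq2 1.42.0, other count minimums, filterByExpr, an adjusted p under 0.01, glmTreat, the 6 SHMT libraries alone, a replicate block, each library left out and both replicate 1 libraries labelled 0–1 hr left out. On simulated counts of 6701 genes with 200 changed, the fit called 99% of those changed 24-fold and 100% of those changed 64-fold between the SHMT groups, and no unchanged gene. Every simulated gene had the same spread, no library was made to stand apart, and a call needed over 16-fold. The simulation thus checks that the fit runs as meant and gives no error rate for these data. A planned search of promoter motifs was not run, since no sequence was used here. Plots used Python 3.11.15 and matplotlib 3.10.9.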

Additional observations from a re-analysis of the deposited data

Results flagged for a closer look

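The change between the labels differed by over 4-fold between SHMT and wild type for 197 genes, by the interaction test of edgeR. Strain, heat shock and developmental arrest go with the genotype here, and their part was not tested. The values below are the log2 difference of the SHMT change minus the wild-type change, for genes named in the report. Negative values were those of CG15047 (−6.02), HLHm7 (−5.02), Tgt (−4.28), Pvf1 (−4.17), CG3626 (−3.86), Obp99a (−3.71), osk (−2.86), mus301 (−2.58), rpr (−2.51) and stg (−2.47). Positive values were those of CG6915 (8.04), GstD3 (5.39), CG6954 (4.2), Trs23 (3.42), CG1673 (3.03), sick (2.96), CG33464 (2.84) and cher (2.18). HLHm7, Obp99a and rpr were near 0 reads at the 1.5–2.5 hr label in SHMT, and GstD3 was near 0 at both labels in wild type, so the size of their interaction depends on few reads.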

How the results depend on the processing

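The count of 381 genes over 16-fold higher was 200 when the test was made against the fold threshold (glmTreat), and 332 to 414 with a library left out. The count of 217 over 16-fold lower was 428 with filterByExpr, 616 with no minimum beyond 1 count and 138 with a minimum of 200 counts, since these change how many genes are tested, and 211 to 227 with a library left out. The 197 interactions over 4-fold were 14 with glmTreat, 325 with no minimum beyond 1 count and 144 to 252 with a library left out. DESeq2, RLE scaling, library sizes alone, an adjusted p under 0.01, a minimum in any of the 4 groups and, where it applies, the 6 SHMT libraries alone kept each count within 1.5 times. Library sizes alone moved the median difference by 0.27, to 0.25. The replicate numbers did not pair the libraries (correlations of same-numbered libraries −0.237, −0.081 and −0.208). With a replicate block the counts were 379, 217 and 188. Of the named genes, me31B turned from −0.01 to 0.25 with library sizes alone, and 12 of 187 changed their side of the threshold with the same sign under some alternative. Genes under 50 counts in both groups, such as the homeotic genes, could not be tested at this depth.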
